A study of Mus musculus with 18 samples.

Results

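The nuclear receptors are a family of transcription factors, most of which share a DNA binding domain made of zinc fingers and a ligand binding domain. The 46 genes examined are a list of receptors from subfamilies NR1 to NR6 and NR0, and all 46 were found by symbol among the 50686 genes of the count tables of the murine mammary carcinoma line E0771. The list was set by family membership and its rule uses no measured value. It was chosen with earlier results of these data known. Steroid receptors such as the glucocorticoid and estrogen receptors bind DNA mostly as homodimers once their hormone is present. The thyroid hormone, retinoic acid, vitamin D, oxysterol, bile acid and fatty acid receptors bind as heterodimers with a retinoid X receptor, and several of them repress their targets with corepressors until ligand brings in coactivators. Other members, among them the Rev-erb, COUP-TF and NR4A proteins, are known as orphan receptors or act without a classical hormone. The Mediator complex, whose kinase module holds CDK8 or its paralog CDK19, contacts many of these receptors through its MED1 subunit.

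RNA was sequenced from 3 E0771 lines, each kept in vehicle (DMSO) or in 1 µM Senexin B (SnxB), an inhibitor of CDK8 and CDK19, for 48 h, with 3 libraries in each of the 6 groups. All 3 lines carried a lentiviral firefly luciferase cassette driven by CMV and selected with puromycin, and then a retroviral hairpin with an mCherry reporter, on which the cells were sorted. The hairpin was a control against Renilla luciferase in the control line (cntrl) and 1 of 2 hairpins against Cdk8 in the lines shCdk8-1 and shCdk8-2. Each line is a single infected and sorted population, so the effect of a hairpin and other differences between the lines cannot be told apart.

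Library totals ran from 16452260 to 22664693 counts in genes, with a median of 19029320. Levels are given as CPM, counts scaled to a common library size with TMM factors, and where genes are compared with one another as TPM, transcripts scaled for gene length and library, each as the mean ± SD over 3 libraries. The targeted gene Cdk8 stood at 56.1 ± 2.12 CPM in cntrl, 21.4 ± 2.44 in shCdk8-1 and 38.8 ± 0.376 in shCdk8-2, all in DMSO, a log2 fold change of -1.39 (SE 0.065, adjusted p = 3.2e-11) and -0.54 (SE 0.061, adjusted p = 1.6e-06). Markers of mammary epithelium were largely absent from the cntrl line. Krt18, Krt5 and Krt14 had at most 3 counts in each of the 18 libraries, and Krt8 rose from 0.118 ± 0.0142 TPM in cntrl to 16.5 ± 0.786 in shCdk8-1 and 27.9 ± 1.51 in shCdk8-2. In DMSO the 6 epithelial markers summed to 0.237 to 0.494 TPM in cntrl, 16.9 to 18.7 in shCdk8-1 and 26.6 to 29.3 in shCdk8-2. In the knockdown lines Krt8 carried this sum, while Cdh1 stood at 0.119, 0.571 and 0.217 TPM in the same order of lines. The T cell marker Cd3e, the macrophage marker Adgre1 and the adipocyte markers Adipoq and Plin1 had at most 3 counts in every library. The 5 leukocyte markers summed to 12.4 to 14.6 TPM in cntrl, 5.90 to 7.14 TPM in shCdk8-1 and 5.28 to 7.80 TPM in shCdk8-2. Most of that sum was Lyz2 alone, at 13.1, 6.52 and 5.78 TPM in the same order of lines. The 3 fibroblast markers summed to 296 to 303, 209 to 243 and 209 to 233 TPM in the same order of lines, with Pdgfra and Pdgfrb lower and Col1a1 higher, from 0.462 ± 0.177 TPM in cntrl to 10.0 ± 1.06 and 5.83 ± 0.495 TPM. The endothelial pair summed to 3.99 to 4.50, 8.46 to 9.79 and 4.01 to 4.32 TPM but moved in opposite directions. Pecam1 rose from 0.178 ± 0.0614 TPM to 9.09 ± 0.676 and 3.63 ± 0.194 TPM, and Cdh5 fell from 4.01 ± 0.327 TPM to 0.194 ± 0.0442 and 0.546 ± 0.0385 TPM. The mesenchymal marker Vim carried its list of 2, at 3589 to 3642, 3192 to 3370 and 3301 to 3525 TPM, while Fn1 had at most 3 counts in every library. The part of these marker changes in the receptor results was not tested.

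Of the 46 receptors, 24 were expressed, here meaning at least 1 TPM in all 3 libraries of at least 1 group. A further 5 were detected with more than 3 counts in some library, and 17 had at most 3 counts in each of the 18 libraries. The expressed set held 10 of 18 NR1 receptors, 7 of 12 NR2, 3 of 8 NR3, 2 of 3 NR4, 1 of 2 NR5 and the single NR6 member, and neither NR0 member. Of the 24, 20 were expressed in all 6 groups. The bile acid receptor gene Nr1h4 and the estrogen receptor gene Esr1 were expressed in the 2 cntrl groups only, and the vitamin D receptor gene Vdr and the steroidogenic factor gene Nr5a1 in the 4 Cdk8 knockdown groups only. A minimum of 0.5 TPM, or of 1 CPM, also gave 24 receptors, but not the same groups. Vdr in cntrl passed both, with its lowest libraries at 0.862 TPM in DMSO and 0.898 TPM in SnxB. At 0.5 TPM Nr1h4 also passed in shCdk8-1 in SnxB (lowest library 0.615 TPM). At 1 CPM Esr1 passed in shCdk8-1 in DMSO (lowest 1.03 CPM) and Nr1h4 missed in cntrl in DMSO (lowest 0.739 CPM).

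The 17 receptors at or under 3 counts were Thrb, Rarb, Ppara, Pparg, Rora, Rorb, Nr1i2, Hnf4g, Rxrg, Nr2e1, Nr2e3, Esr2, Nr3c2, Pgr, Nr5a2, Nr0b1 and Nr0b2. Of these, 6 had 0 counts in all 18 libraries, namely the adipogenic receptor Pparg, Rarb, Hnf4g, the progesterone receptor Pgr, Nr0b1 and Nr0b2. A count of 0 allows up to 3 counts, or 0.132 to 0.182 CPM depending on the library, so lower levels were not detectable at this depth. The 5 detected genes were Nr4a3, with at most 18 counts, Esrrg with 17, Esrrb with 7, and Nr1i3 and Hnf4a with 4 each. E0771 is labelled as a triple-negative breast cancer model, a class defined by the absence of the estrogen and progesterone receptors and of ERBB2 amplification. Pgr was at 0 counts, Esr1 mRNA was at 6.55 ± 0.359 TPM and Erbb2 mRNA at 41.2 ± 1.04 TPM in cntrl in DMSO.

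In vehicle-treated cntrl cells the glucocorticoid receptor gene Nr3c1 was the most abundant receptor mRNA at 136 ± 5.28 TPM. It was followed by Rxra at 88.7 ± 3.05 TPM and Nr2f6 at 88.1 ± 2.97 TPM, whose library values overlapped, and by Rxrb at 76.7 ± 2.14 TPM and Nr1h2 at 75.8 ± 4.41 TPM, which also overlapped. Down the whole order, 9 of the 23 neighbouring pairs of expressed receptors overlapped in cntrl in DMSO, and the order within such pairs was not resolved. In shCdk8-1 the highest receptor was Rxrb at 75.0 ± 3.15 TPM, with Nr3c1 at 70.1 ± 3.97 TPM and Nr2f6 at 69.3 ± 2.88 TPM overlapping it. In shCdk8-2 Nr3c1 stood at 85.0 ± 1.08 TPM and Rxrb at 78.6 ± 3.18 TPM. All 46 receptors together summed to 882 ± 12 TPM in cntrl, 837 ± 3.35 TPM in shCdk8-1 and 855 ± 31.3 TPM in shCdk8-2 in DMSO. Nr3c1 alone made up 15.4% ± 0.652 of that sum in cntrl, 8.37% ± 0.471 in shCdk8-1 and 9.95% ± 0.330 in shCdk8-2. The plot of TPM in the 6 groups shows the expressed receptors in the order of the cntrl line.

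**Figure D1:**
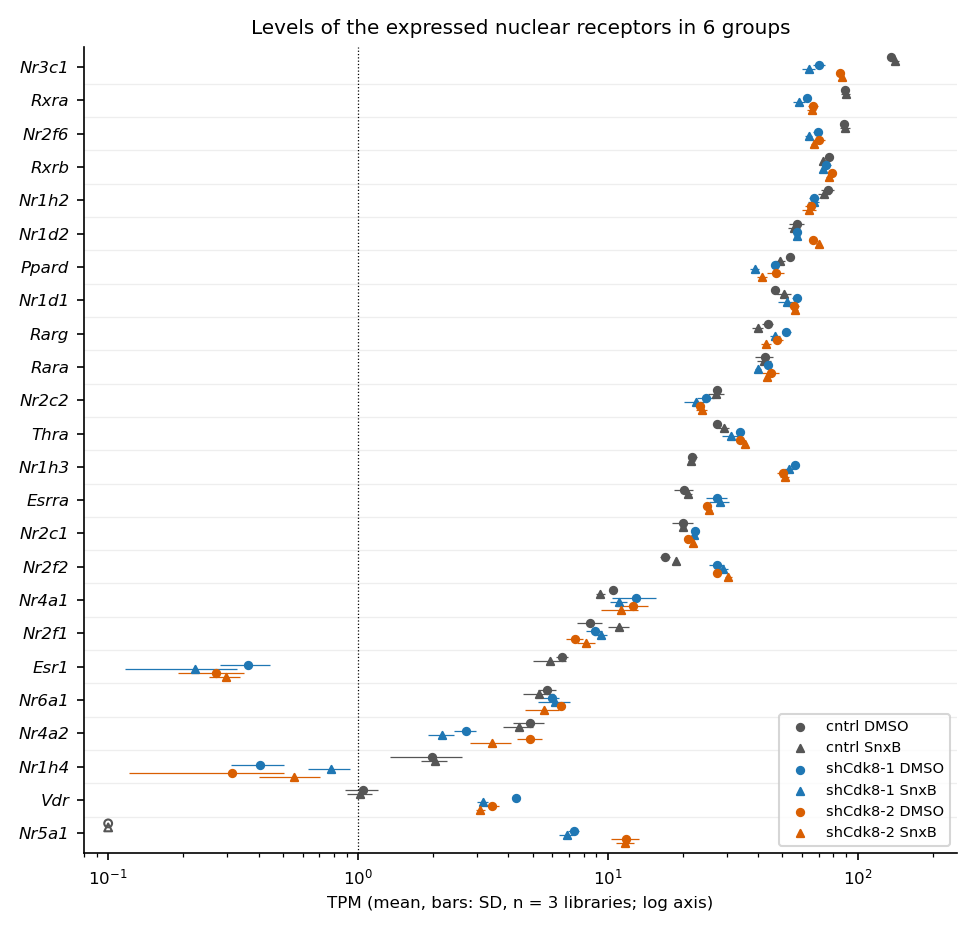
Level of the 24 expressed nuclear receptors in TPM (log axis) in the 6 groups, each point the mean of 3 libraries, with values under 0.1 TPM drawn open at 0.1 and a dotted line at 1 TPM. Nr3c1 is highest in cntrl at 136 TPM, and Esr1, Nr1h4 and Nr5a1 lie on opposite sides of the 1 TPM line in cntrl and in the knockdown lines, while the cntrl means of Vdr lie just above it.

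The first question was how the receptors in the knockdown lines differed from those in cntrl in vehicle. The same receptors differed by the most in both lines. Esr1 fell from 6.55 ± 0.359 TPM to 0.362 ± 0.0808 TPM in shCdk8-1 and 0.270 ± 0.0790 TPM in shCdk8-2, and Nr1h4 from 1.97 ± 0.629 TPM to 0.406 ± 0.0976 and 0.313 ± 0.191 TPM. Vdr rose from 1.05 ± 0.159 TPM to 4.29 ± 0.122 and 3.45 ± 0.202 TPM, and the oxysterol receptor gene Nr1h3 from 21.8 ± 0.912 TPM to 56.4 ± 1.79 and 50.2 ± 2.85 TPM. Nr5a1, with 0 counts in cntrl, reached 7.31 ± 0.376 and 11.8 ± 1.48 TPM. The fit across all genes tested 25 of the 46 receptors after the filter on low counts. Nr5a1 passed that filter only through the knockdown lines and Nr1h4 only through cntrl. Counts over the tested receptors, and the adjusted p-values of these 2 genes in either medium, are therefore a description. For shCdk8-1 against cntrl, 8 receptors rose and 9 fell at adjusted p under 0.05, where 60.6% of all 12590 genes tested were called, 30.0% higher and 30.6% lower. For shCdk8-2, 9 rose and 8 fell, where 58.2% of all genes were called, 28.7% higher and 29.5% lower. Deregulated receptors, those that passed and changed more than 2-fold, numbered 3 up and 2 down with each hairpin. Over all genes 12.3% were deregulated in shCdk8-1, with 5.01% up and 7.32% down. In shCdk8-2 the share was 10.8%, with 4.75% up and 6.08% down. The counts of receptors are read against this background, in which most genes of the transcriptome were called.

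The median log2 fold change of the tested receptors was 0.02 for shCdk8-1, beside 0.0019 over all genes, and 0.07 for shCdk8-2, beside 0.0043. The median size of the change was 0.29 and 0.27 for the receptors and 0.26 and 0.24 for all genes. With both hairpins, 8 receptors rose (Nr5a1, Vdr, Nr1h3, Nr2f2, Esrra, Thra, Nr1d1 and Rarg) and 8 fell (Esr1, Nr1h4, Nr3c1, Rxra, Nr2f6, Nr1h2, Nr2c2 and Ppard), where 23.9% of all genes rose and 25.2% fell with both. Nr4a2 fell with shCdk8-1 alone and Nr1d2 rose with shCdk8-2 alone, while no receptor moved in opposite directions. Both comparisons use the same cntrl libraries. No source states that the 3 libraries of a group came from separate cultures, so p-values measure the spread between these libraries. In bulk RNA a fall can reflect fewer expressing cells or less RNA per cell, and these cannot be told apart.

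**Figure D2:**
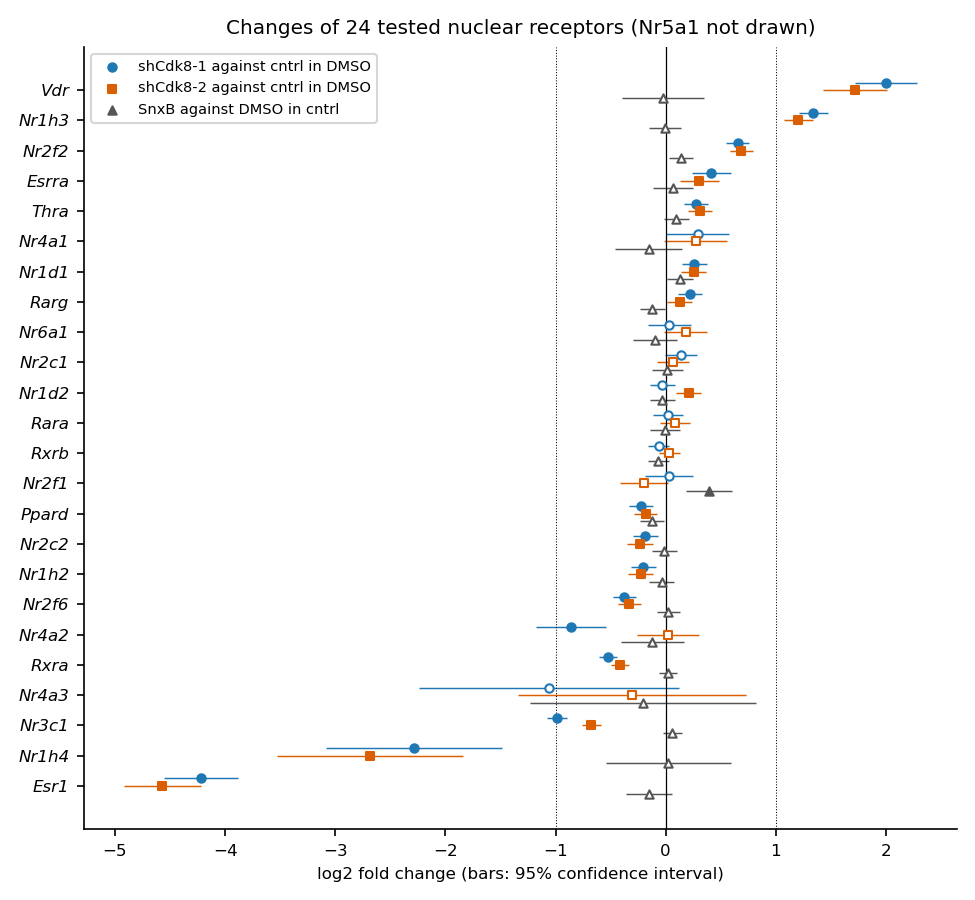
Log2 fold change of 24 tested receptors for shCdk8-1 and shCdk8-2 against cntrl in DMSO and for SnxB against DMSO in cntrl, with 95% confidence intervals, filled points at adjusted p under 0.05 and dotted lines at a fold change of 2. Nr5a1, at 0 counts in the reference group, is not drawn. The hairpin points of Esr1 lie at -4.22 and -4.57 and those of Vdr at 2.00 and 1.72, while under SnxB only the point of Nr2f1 is filled.

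Promoters are given for the receptors deregulated in DMSO that have an entry in the RefSeq promoter table (GRCm38.p6). Each is the 250 bases before the transcript start of 1 table entry a gene, 5′ to 3′ on the gene's strand. These starts lie inside the gene bounds of the count annotation, which also holds longer transcripts. Esr1 and Nr1h3 have 2 entries each, of which the one farther upstream is shown. They are Esr1 at chr10:4611739-4611988 on the plus strand, Nr1h3 at chr2:91195117-91195366, Nr1h4 at chr10:89506659-89506908 and Vdr at chr15:97908297-97908546, the last 3 on the minus strand. Capitals mark matches, on either strand, to any of 5 motifs. The hexamer bound by many nuclear receptors was searched as AGGTCA, and the E-box of clock and other factors, which reads alike from both strands, as CACGTG. The TATA motif was searched with the letters TATAAA, the binding motif of NF-Y with the letters CCAAT, and the GC box of Sp1 family factors with the letters GGGCGG. In these windows no match overlapped another.
Esr1: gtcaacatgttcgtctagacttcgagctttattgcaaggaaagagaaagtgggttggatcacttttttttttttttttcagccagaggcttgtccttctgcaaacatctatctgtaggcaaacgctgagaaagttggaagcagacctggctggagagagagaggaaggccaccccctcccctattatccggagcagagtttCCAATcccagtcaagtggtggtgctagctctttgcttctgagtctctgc
Nr1h3: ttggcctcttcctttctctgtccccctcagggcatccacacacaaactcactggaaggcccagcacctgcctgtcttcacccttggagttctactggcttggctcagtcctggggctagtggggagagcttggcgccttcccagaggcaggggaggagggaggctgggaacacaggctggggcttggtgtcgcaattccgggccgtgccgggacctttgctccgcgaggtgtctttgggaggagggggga
Nr1h4: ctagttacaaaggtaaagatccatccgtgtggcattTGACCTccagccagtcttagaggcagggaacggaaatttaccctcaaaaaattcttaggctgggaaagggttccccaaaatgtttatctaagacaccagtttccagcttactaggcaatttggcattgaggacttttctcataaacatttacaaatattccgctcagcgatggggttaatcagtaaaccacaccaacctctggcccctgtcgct
Vdr: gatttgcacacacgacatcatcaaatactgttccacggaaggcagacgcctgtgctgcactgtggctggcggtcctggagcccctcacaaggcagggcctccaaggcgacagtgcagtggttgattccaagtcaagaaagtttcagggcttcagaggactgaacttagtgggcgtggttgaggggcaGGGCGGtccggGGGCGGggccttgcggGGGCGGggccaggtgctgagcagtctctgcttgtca

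Among these windows, that of Vdr held 3 GC boxes within 63 bases of the start, that of Nr1h4 1 receptor hexamer as its reverse complement, that of Esr1 1 CCAAT motif, and that of Nr1h3 none of the 5 motifs. The second entries of Esr1 and Nr1h3 held none. Over all 32544 promoters considered, 14% held a receptor hexamer, 6.03% an E-box, 12.3% a TATA motif, 33.8% a CCAAT motif and 33.0% a GC box. The 63 entries that matched 42 of the 46 receptors held them in 17.5%, 7.94%, 12.7%, 33.3% and 44.4%. The median ratio of observed to expected CpG was 0.492 in the receptor entries and 0.378 in all, and within the receptors it was 0.492 for expressed and 0.468 for undetected genes. A match is a description of letters and not of a bound site.

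Esr1 (ENSMUSG00000019768.16, chr10:4611593-5005614, plus strand) encodes estrogen receptor alpha, the hormone receptor that defines luminal breast tumours. Its level in DMSO was 23.7, 21.5 and 24.1 CPM in the cntrl libraries, 1.17, 1.54 and 1.03 CPM in shCdk8-1 and 1.17, 1.02 and 0.657 CPM in shCdk8-2. In SnxB it was 24.2, 18.2 and 20.1 CPM in cntrl, 1.18, 0.475 and 0.687 CPM in shCdk8-1 and 1.18, 0.910 and 1.00 CPM in shCdk8-2. Every cntrl library lay far above every knockdown library, and the 4 knockdown groups overlapped one another. The counts behind the knockdown values were 8 to 27 per library, against 385 to 492 in cntrl. In DMSO the log2 fold change was -4.22 (SE 0.16, adjusted p = 1.9e-12) for shCdk8-1 and -4.57 (SE 0.16, adjusted p = 1.8e-12) for shCdk8-2.

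Nr3c1 (ENSMUSG00000024431.14) encodes the glucocorticoid receptor, the broadly expressed receptor for cortisol and corticosterone. In DMSO it was measured at 271, 249 and 260 CPM in cntrl, 130, 137 and 126 CPM in shCdk8-1 and 164, 161 and 165 CPM in shCdk8-2. With SnxB the libraries gave 282, 271 and 259 CPM in cntrl, 125, 114 and 127 CPM in shCdk8-1 and 167, 162 and 163 CPM in shCdk8-2. The 3 lines formed separate levels, cntrl above shCdk8-2 above shCdk8-1, in either medium. Nr3c1 fell by 0.99 on the log2 scale (SE 0.042, adjusted p = 8.9e-12) with shCdk8-1 and by 0.68 (SE 0.042, adjusted p = 1.1e-09) with shCdk8-2, the first just inside a 2-fold change.

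Esrra encodes the estrogen-related receptor alpha, an orphan receptor known for driving mitochondrial and oxidative genes. Its level rose from 20.2 ± 1.74 TPM in cntrl to 27.4 ± 2.63 TPM in shCdk8-1 (log2 fold change 0.41, SE 0.083, adjusted p = 0.00040) and 24.9 ± 0.882 TPM in shCdk8-2 (0.30, adjusted p = 0.0052). Its relatives Esrrb and Esrrg were detected at no more than 7 and 17 counts, and Esr2, Nr3c2 and Pgr were not detected.

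Nr5a1 (ENSMUSG00000026751.14, chr2:38692656-38714542, minus strand) encodes steroidogenic factor 1, the receptor known from the adrenal gland and the gonads, where it activates steroid-producing enzymes. In DMSO it had 0 counts in the 3 cntrl libraries, 7.42, 8.14 and 7.95 CPM in shCdk8-1 and 11.4, 14.4 and 13.1 CPM in shCdk8-2. With SnxB the cntrl libraries held 1 count each, shCdk8-1 stood at 7.90, 7.13 and 7.40 CPM and shCdk8-2 at 13.5, 13.1 and 11.6 CPM. The lines did not overlap, and shCdk8-2 was above shCdk8-1 in each medium. Against a floor of 3 counts over the cntrl group, Nr5a1 was at least 144-fold higher in shCdk8-1 (adjusted p = 4.0e-11) and at least 236-fold higher in shCdk8-2 (adjusted p = 6.4e-12) in DMSO. In SnxB the ratio to the 3 counts of cntrl was 148 (95% counting interval 50.4 to 722) and 253 (86.1 to 1229). Nr6a1, the germ cell nuclear factor gene, lies next to Nr5a1 on the same strand at chr2:38723370-38927688, with 8827 bases between the genes. It was present in all lines, at 5.73 ± 0.457 TPM in cntrl, 5.96 ± 0.436 TPM in shCdk8-1 and 6.49 ± 0.141 TPM in shCdk8-2 (log2 fold change 0.03 and 0.18, adjusted p = 0.78 and 0.098). The related Nr5a2 was not detected.

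**Figure D3:**
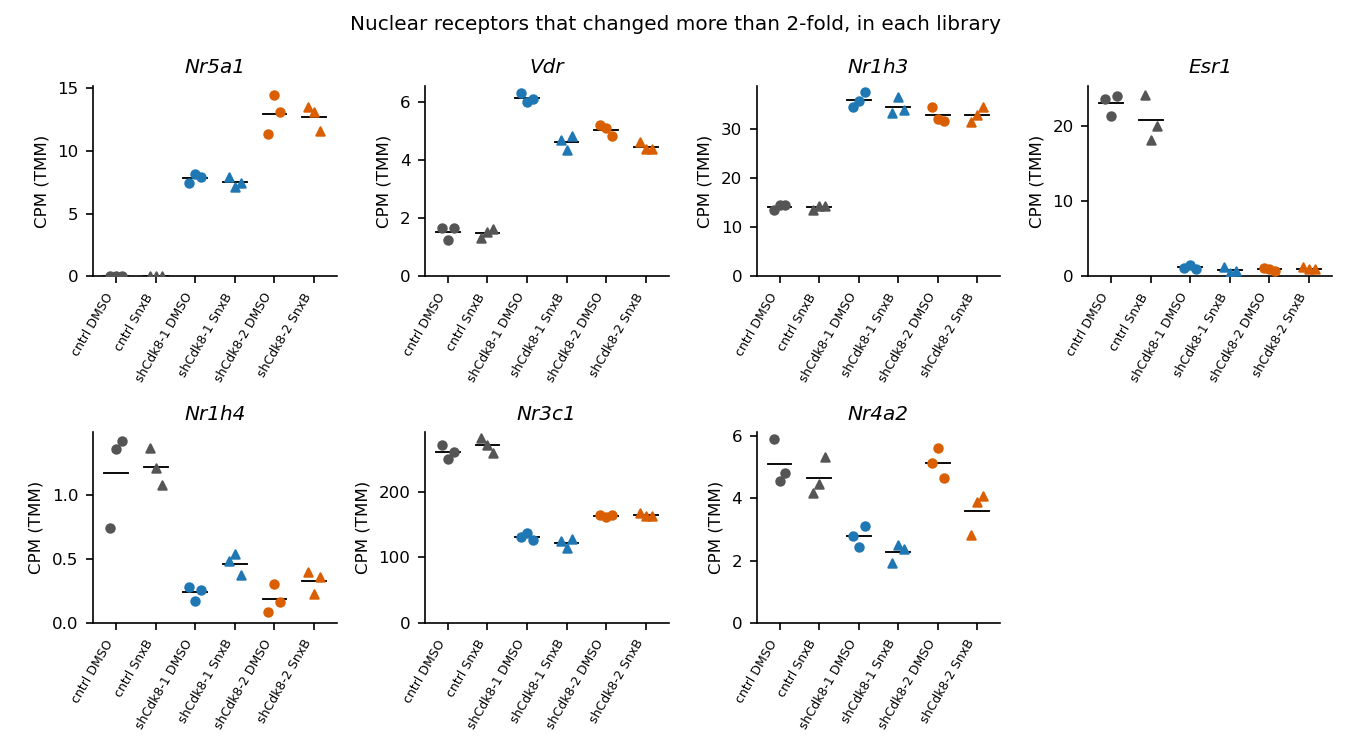
Level of the 7 receptors deregulated in at least 1 comparison, in CPM (TMM scaled), in each of the 18 libraries, with 1 panel per gene, a point per library and a bar at the mean of each group of 3. Esr1 and Nr1h4 are high in the cntrl groups alone, Nr5a1, Vdr and Nr1h3 are high in the 4 knockdown groups, Nr3c1 forms 3 levels and Nr4a2 is lowest in shCdk8-1.

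Among the shared heterodimer partners, Rxra, which encodes retinoid X receptor alpha, fell from 88.7 ± 3.05 TPM in cntrl to 63.0 ± 1.40 TPM in shCdk8-1 (log2 fold change -0.52, SE 0.039, adjusted p = 9.3e-09) and 66.4 ± 2.88 TPM in shCdk8-2 (-0.42, SE 0.039, adjusted p = 1.6e-07). Rxrb, the beta form, was at 76.7 ± 2.14, 75.0 ± 3.15 and 78.6 ± 3.18 TPM in the 3 lines and did not pass the test (log2 fold change -0.06 and 0.03, adjusted p = 0.24 and 0.53). Rxrg was not detected. The summed level of the retinoid X receptors was 165 ± 2.30 TPM in cntrl, 138 ± 2.52 TPM in shCdk8-1 and 145 ± 6.04 TPM in shCdk8-2.

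Vdr (ENSMUSG00000022479.15, chr15:97854425-97910630, minus strand) encodes the receptor of calcitriol, the active form of vitamin D. In DMSO its level was 1.66, 1.25 and 1.66 CPM in cntrl, 6.29, 5.98 and 6.09 CPM in shCdk8-1 and 5.22, 5.10 and 4.82 CPM in shCdk8-2. The SnxB libraries gave 1.31, 1.53 and 1.64 CPM in cntrl, 4.68, 4.34 and 4.81 CPM in shCdk8-1 and 4.63, 4.38 and 4.37 CPM in shCdk8-2. All 12 knockdown libraries were above all 6 cntrl libraries, whose values rest on 23 to 34 counts each. Vdr rose by a log2 fold change of 2.00 (SE 0.13, adjusted p = 2.2e-09) with shCdk8-1 and 1.72 (SE 0.14, adjusted p = 2.6e-08) with shCdk8-2.

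Nr1h3 (ENSMUSG00000002108.10, chr2:91184061-91202834, minus strand) encodes the liver X receptor alpha, an oxysterol sensor that controls cholesterol export. In DMSO the libraries gave 13.4, 14.4 and 14.5 CPM in cntrl, 34.5, 35.7 and 37.5 CPM in shCdk8-1 and 34.4, 32.0 and 31.6 CPM in shCdk8-2. In SnxB they gave 13.5, 14.4 and 14.3 CPM, 33.3, 36.4 and 33.7 CPM, and 31.3, 32.7 and 34.3 CPM. The knockdown libraries were all above the cntrl libraries, with a log2 fold change in DMSO of 1.34 (SE 0.062, adjusted p = 2.5e-11) for shCdk8-1 and 1.20 (SE 0.062, adjusted p = 1.4e-10) for shCdk8-2. Its paralog Nr1h2, the liver X receptor beta gene, fell slightly, from 75.8 ± 4.41 TPM to 67.1 ± 2.91 TPM (log2 fold change -0.20, adjusted p = 0.0033) and 64.8 ± 3.41 TPM (-0.22, adjusted p = 0.0017). The pair thus stood at 21.8 ± 0.912 against 75.8 TPM in cntrl and at 56.4 ± 1.79 against 67.1 TPM in shCdk8-1 and 50.2 ± 2.85 against 64.8 TPM in shCdk8-2.

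Nr1h4 (ENSMUSG00000047638.15, chr10:89454234-89533585, minus strand) encodes the farnesoid X receptor, the bile acid sensor of liver and intestine. It was a low-count gene, with 12, 25 and 29 counts in the cntrl libraries in DMSO, 6, 3 and 5 in shCdk8-1 and 2, 6 and 3 in shCdk8-2, which is 0.739, 1.35 and 1.42 CPM, 0.282, 0.171 and 0.258 CPM, and 0.0870, 0.306 and 0.164 CPM. In SnxB the counts were 25, 26 and 21 in cntrl, 9, 9 and 7 in shCdk8-1 and 8, 4 and 6 in shCdk8-2. No knockdown library reached the lowest cntrl library in counts. The log2 fold change in DMSO was -2.28 (SE 0.38, adjusted p = 6.8e-05) for shCdk8-1 and -2.68 (SE 0.40, adjusted p = 2.5e-05) for shCdk8-2.

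The remaining heterodimeric receptors moved less. Thra, the thyroid hormone receptor alpha gene, rose from 27.3 ± 0.824 TPM to 33.8 ± 0.822 TPM (log2 fold change 0.28, SE 0.053, adjusted p = 0.00028) and 33.9 ± 1.28 TPM (0.31, SE 0.052, adjusted p = 9.5e-05). Rarg, the retinoic acid receptor gamma gene, rose from 43.6 ± 2.19 TPM to 51.9 ± 2.21 TPM with shCdk8-1 (0.22, SE 0.052, adjusted p = 0.0017) and was at 47.6 ± 2.74 TPM with shCdk8-2 (0.13, SE 0.052, adjusted p = 0.049). Rara, its alpha relative, did not pass the test at 42.5 ± 3.54, 43.9 ± 1.5 and 45.0 ± 3.39 TPM (0.02 and 0.08, adjusted p = 0.82 and 0.29). Ppard, the ubiquitous fatty acid receptor and the only expressed PPAR, fell from 53.4 ± 0.684 TPM to 46.8 ± 1.35 TPM (-0.22, SE 0.050, adjusted p = 0.0011) and 47.1 ± 3.75 TPM (-0.18, SE 0.050, adjusted p = 0.0055). The call of Rarg for shCdk8-2 was lost when cntrl replicate 2 or 3 or shCdk8-2 replicate 1 or 2 in DMSO was left out, with log2 fold changes of 0.14, 0.10, 0.14 and 0.09.

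The heme receptors of the circadian clock are known as repressors of Arntl. Nr1d1, Rev-erb alpha, rose from 46.5 ± 0.395 TPM in cntrl to 57.0 ± 2.28 TPM in shCdk8-1 (log2 fold change 0.26, adjusted p = 0.00054) and 55.6 ± 2.71 TPM in shCdk8-2 (0.26, adjusted p = 0.00072). Nr1d1 overlaps Thra by 263 bases on the opposite strand, and the counting used strand. Nr1d2, Rev-erb beta, was at 57.2 ± 4.01 TPM in cntrl and 57.3 ± 0.924 TPM in shCdk8-1 (-0.03, adjusted p = 0.65), and rose to 66.2 ± 0.745 TPM in shCdk8-2 (0.21, SE 0.052, adjusted p = 0.0028). The activating ROR receptors Rora and Rorb were not detected.

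Of the NR2 orphan receptors, Nr2f2, which encodes COUP-TFII, rose from 17.0 ± 0.753 TPM to 27.4 ± 1.84 TPM in shCdk8-1 (log2 fold change 0.65, SE 0.050, adjusted p = 1.1e-08) and 27.4 ± 0.692 TPM in shCdk8-2 (0.69, SE 0.049, adjusted p = 7.3e-09). Its paralog Nr2f6, one of the most abundant receptors, fell from 88.1 ± 2.97 TPM to 69.3 ± 2.88 TPM (-0.38, adjusted p = 5.5e-06) and 70.2 ± 3.72 TPM (-0.33, adjusted p = 2.5e-05). Nr2f1, COUP-TFI, was at 8.50 ± 0.986, 8.85 ± 0.645 and 7.38 ± 0.595 TPM and did not pass (0.03 and -0.20, adjusted p = 0.80 and 0.12). Nr2c2, the testicular receptor TR4 gene, fell from 27.4 ± 0.951 TPM to 24.7 ± 1.98 TPM (-0.18, adjusted p = 0.0079) and 23.3 ± 0.444 TPM (-0.23, adjusted p = 0.0015). Nr2c1, the TR2 gene, stood at 20 ± 1.95, 22.4 ± 0.840 and 20.9 ± 0.661 TPM (0.14 and 0.07, adjusted p = 0.088 and 0.40). Without cntrl replicate 1 in DMSO the Nr2c1 value for shCdk8-1 became 0.21 and passed the test.

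The NR4A receptors are immediate early genes that act without a known ligand. Nr4a2, or Nurr1 (ENSMUSG00000026826.13, chr2:57106830-57124003, minus strand), was at 5.91, 4.55 and 4.80 CPM in cntrl, 2.77, 2.45 and 3.10 CPM in shCdk8-1 and 5.13, 5.61 and 4.65 CPM in shCdk8-2 in DMSO. In SnxB it was at 4.15, 4.45 and 5.33 CPM in cntrl, 1.93, 2.5 and 2.38 CPM in shCdk8-1 and 2.81, 3.87 and 4.07 CPM in shCdk8-2. The shCdk8-1 libraries were the lowest in both media, while shCdk8-2 overlapped cntrl in DMSO and lay below it in SnxB. Nr4a2 fell with shCdk8-1 in DMSO (log2 fold change -0.86, SE 0.15, adjusted p = 0.00010) and was at 0.02 (adjusted p = 0.92) for shCdk8-2. Nr4a1, Nur77, was at 10.4 ± 0.367, 13 ± 2.62 and 12.6 ± 1.81 TPM and did not pass (0.29 and 0.27, adjusted p = 0.076 and 0.095). Nr4a1 passed at 0.43 without shCdk8-1 replicate 2 and at 0.36 without shCdk8-2 replicate 3 in DMSO. Nr4a3, at 0.347 ± 0.0647 TPM in cntrl and 0.165 ± 0.10 TPM in shCdk8-1, had a log2 fold change of -1.06 (adjusted p = 0.11), and -1.70 and a passing call without shCdk8-1 replicate 1.

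The 2 hairpins were then compared with each other in DMSO. Among the receptors, 4 were higher in shCdk8-2 than in shCdk8-1 and none was lower, where 22.0% of all genes were called, and none passed a 2-fold change, where 2.07% of genes did. The largest difference was in Nr4a2 (log2 fold change 0.88, SE 0.15, adjusted p = 0.00045), followed by Nr5a1 (0.72, SE 0.099, adjusted p = 0.00016), Nr3c1 (0.31, SE 0.042, adjusted p = 7.4e-05) and Nr1d2 (0.24, SE 0.052, adjusted p = 0.0038). Vdr (-0.28, adjusted p = 0.066), Nr1h3 (-0.14, adjusted p = 0.099) and Rxra (0.11, adjusted p = 0.068) did not pass. The median log2 difference of the tested receptors was 0.03, beside -0.00062 over all genes.

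In the presence of SnxB the hairpins were again compared with cntrl, in a fit of all 18 libraries with 12772 genes. The receptors that moved most in DMSO moved here as well. For shCdk8-1, 6 receptors rose and 10 fell, where 60.6% of all genes were called, 30.5% higher and 30.1% lower, and 3 were deregulated up and 4 down, where 12.8% of genes were, 5.75% higher and 7.06% lower. For shCdk8-2, 8 rose and 10 fell, where 56.7% of genes were called, 28.1% higher and 28.6% lower, and 3 were deregulated up and 2 down, where 10.8% of genes were, 5.04% higher and 5.75% lower. The median log2 fold change of the receptors was -0.01 and 0.03, beside 0.0099 and 0.0070 over all genes. With both hairpins in both media 5 receptors rose (Nr5a1, Vdr, Nr1h3, Nr2f2 and Esrra), and the 8 that fell with both in DMSO also fell with both in SnxB. Over the 12577 genes tested in both fits, 20.1% rose and 21.9% fell in all 4 comparisons.

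In that medium Esr1 had a log2 fold change of -4.70 (adjusted p = 1.7e-14) for shCdk8-1 and -4.31 (adjusted p = 4.5e-14) for shCdk8-2, and Nr1h4 one of -1.39 (SE 0.31, adjusted p = 0.00059) and -1.87 (SE 0.33, adjusted p = 6.5e-05). Vdr was higher by 1.62 (adjusted p = 8.3e-10) and 1.57 (adjusted p = 1.8e-09), and Nr1h3 by 1.29 (adjusted p = 3.5e-13) and 1.22 (adjusted p = 1.4e-12). Nr5a1 rose in each line (adjusted p = 1.1e-13 and 6.9e-15), with the ratios given above. Nr3c1 passed a 2-fold change for shCdk8-1 at -1.15 (SE 0.045, adjusted p = 1.5e-14) and stood at -0.72 (adjusted p = 2.6e-11) for shCdk8-2. Nr4a2 fell with both hairpins in SnxB, by 1.03 on the log2 scale (SE 0.17, adjusted p = 2.0e-05) and by 0.39 (SE 0.15, adjusted p = 0.036).

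Among the abundant receptors in SnxB, Rxra was at -0.63 (adjusted p = 6.2e-11) and -0.47 (adjusted p = 6.1e-09), Nr2f6 at -0.49 (adjusted p = 1.5e-08) and -0.44 (adjusted p = 9.9e-08), and Ppard at -0.34 (adjusted p = 7.8e-06) and -0.25 (adjusted p = 0.00027). These 3 receptors fell with both hairpins. Nr2f2 rose by 0.62 (adjusted p = 6.5e-10) and 0.68 (adjusted p = 2.0e-10) and Esrra by 0.42 (adjusted p = 0.00026) and 0.26 (adjusted p = 0.015). Thra rose with shCdk8-2 (0.26, adjusted p = 0.00036) and was at 0.09 (adjusted p = 0.15) with shCdk8-1, while Rarg rose with shCdk8-1 (0.23, adjusted p = 0.00098) and was at 0.09 (adjusted p = 0.14) with shCdk8-2. The COUP-TFI gene Nr2f1, which did not pass in DMSO, was at -0.25 (adjusted p = 0.031) and -0.46 (adjusted p = 0.00041) against cntrl in SnxB, where its cntrl level was itself higher. Nr1d2 rose with shCdk8-2 (0.30, adjusted p = 2.3e-05), as did Nr1d1 (0.13, adjusted p = 0.045). Nr1h2 (-0.14, adjusted p = 0.038 and -0.22, adjusted p = 0.0028) and Nr2c2 (-0.27, adjusted p = 0.0013 and -0.21, adjusted p = 0.0099) fell with both.

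Some of these smaller calls were borderline, and were lost or gained when a library was left out. For shCdk8-1 in SnxB, the call of Nr1h2 was lost without cntrl replicate 3 or shCdk8-1 replicate 1 or 3 (-0.09, -0.15 and -0.11), and that of Nr2f1 without cntrl replicate 3 or shCdk8-1 replicate 2 or 3 (-0.16, -0.23 and -0.23), while Nr2c1 gained one without cntrl replicate 2 or shCdk8-1 replicate 1 (0.17 each), Nr6a1 without cntrl replicate 3 or shCdk8-1 replicate 2 (0.33 and 0.29) and Thra without shCdk8-1 replicate 2 (0.14). For shCdk8-2 in SnxB, Nr1d1 lost its call without cntrl replicate 1 or 3 or shCdk8-2 replicate 1 or 3 (0.12, 0.10, 0.12 and 0.15), Nr4a2 without cntrl replicate 3 or shCdk8-2 replicate 1 (-0.27 and -0.22), and Esrra and Nr2c2 without cntrl replicate 1 (0.23 and -0.15), while Nr4a1 gained one without shCdk8-2 replicate 3 (0.40).

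The next question was whether kinase inhibition changed the receptors in the cntrl line, which carries no hairpin against Cdk8. SnxB moved 1 receptor, Nr2f1, which rose from 8.50 ± 0.986 TPM in DMSO to 11.1 ± 1.08 TPM (log2 fold change 0.39, SE 0.098, 95% confidence interval 0.18 to 0.60, adjusted p = 0.027). Over all genes 5.53% were called, and 0.318% passed a 2-fold change, which no receptor did. Its libraries stood at 11.7, 9.26 and 10.3 CPM in DMSO and 12.6, 13.3 and 15.1 CPM in SnxB, without overlap. The call of Nr2f1 was lost without DMSO replicate 2 or 3 or SnxB replicate 2 or 3, at log2 fold changes of 0.32, 0.39, 0.42 and 0.32. The median over the tested receptors was -0.0058, beside 0.0064 over all genes.

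For 5 of the receptors given above by library, Esr1, Vdr, Nr1h3, Nr1h4 and Nr3c1, the SnxB interval did not contain the estimate of either hairpin in DMSO. For Ppard it did, at -0.23 to -0.02. The error of the hairpin estimates is not part of these intervals. The receptors given by library were picked for a change above 2-fold in a hairpin comparison. That choice favours hairpin estimates outside the SnxB interval, so the count of 5 is a description. In cntrl Nr4a2, also given above by library, stood at 5.09 ± 0.724 CPM in DMSO and 4.64 ± 0.611 CPM in SnxB, with overlapping libraries. In DMSO Nr4a2 fell with shCdk8-1 alone. The 95% confidence interval of the SnxB log2 fold change in cntrl was -0.36 to 0.06 for Esr1 (estimate -0.15, adjusted p = 0.45) and -0.40 to 0.35 for Vdr (-0.02, adjusted p = 0.97). It was -0.15 to 0.14 for Nr1h3 (-0.01, adjusted p = 0.98), -0.54 to 0.59 for Nr1h4 (0.02, adjusted p = 0.98) and -0.03 to 0.15 for Nr3c1 (0.06, adjusted p = 0.50). Nr5a1, with 0 counts in DMSO and 1 count in each SnxB library, gives no fold. These comparisons share the cntrl libraries in DMSO with the hairpin comparisons. Rxra was at 89.7 ± 3.67 TPM in SnxB against 88.7 ± 3.05 TPM in DMSO (0.02, adjusted p = 0.81), and the family sum at 881 ± 12 against 882 ± 12 TPM.

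In the knockdown lines SnxB moved few receptors. In shCdk8-1, 2 fell and none rose, where 1.48% of all genes were called and 0.110% passed a 2-fold change. In shCdk8-2, 1 fell and none rose, where 2.05% of genes were called and 0.125% passed a 2-fold change. Ppard fell in both lines, from 46.8 ± 1.35 to 38.7 ± 1.70 TPM in shCdk8-1 (log2 fold change -0.24, SE 0.051, adjusted p = 0.014) and from 47.1 ± 3.75 to 41.6 ± 1.98 TPM in shCdk8-2 (-0.20, SE 0.050, adjusted p = 0.043). Its value in cntrl was -0.13 (adjusted p = 0.18). Vdr fell in shCdk8-1 from 4.29 ± 0.122 to 3.16 ± 0.167 TPM (-0.41, SE 0.098, adjusted p = 0.042) and was at -0.18 (adjusted p = 0.62) in shCdk8-2. Vdr lost its call without any 1 of the 6 libraries compared (-0.44 to -0.37). Ppard lost its call in shCdk8-1 without DMSO or SnxB replicate 2 or 3 (-0.24 to -0.21), and in shCdk8-2 without DMSO replicate 1 or 2 or SnxB replicate 2 or 3 (-0.21 to -0.14).

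Whether SnxB acted differently in a knockdown line than in cntrl was tested as an interaction. No receptor passed for either hairpin by edgeR, where 0.305% of all genes did for shCdk8-1 and 0.0548% for shCdk8-2, and DESeq2 also called 0 and 0. At an unadjusted p under 0.05 there were 4 receptors for shCdk8-1, where 9.90% of all genes were, and 1 for shCdk8-2, where 5.86% were. The falls of Ppard and Vdr in the knockdown lines were thus not shown to differ from cntrl.

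Genes that work with the receptors were counted from 12 lists of 114 genes, 82 of them tested in the DMSO comparisons. Over all lists 38 genes rose and 21 fell with shCdk8-1 and 32 rose and 20 fell with shCdk8-2 in DMSO, and in SnxB 37 and 20, and 33 and 20, of 83 tested. These counts, and those of each list, stand beside 30.0% of all genes higher and 30.6% lower with shCdk8-1 and 28.7% and 29.5% with shCdk8-2 in DMSO, and 30.5% and 30.1%, and 28.1% and 28.6%, in SnxB. The lists are short, and their counts and medians are a description. Some genes stand in several lists. Of 14 coactivators, proteins that link ligand-bound receptors to histone acetylation and Mediator, 13 were tested, with 7 up and 2 down for shCdk8-1 and 5 up and 3 down for shCdk8-2 (median log2 fold change 0.19 and 0.05). In SnxB the counts were 2 up and 3 down, and 4 up and 3 down. Ppargc1a, the coactivator PGC-1 alpha of mitochondrial genes, rose from 1.98 ± 0.293 TPM in cntrl to 17.9 ± 0.284 TPM in shCdk8-1 (log2 fold change 3.15) and 3.72 ± 0.403 TPM in shCdk8-2 (0.91). Ncoa1, the steroid receptor coactivator SRC-1, rose from 4.99 ± 0.265 TPM to 17.7 ± 1.5 TPM (1.79) and 15 ± 0.385 TPM (1.58). Of 9 corepressors, all tested, 4 rose and 2 fell with shCdk8-1 and 3 rose and 2 fell with shCdk8-2, with medians of 0.16 and 0.06 and with 2 up and 2 down, and 4 up and 2 down, in SnxB. Hr, the hairless corepressor of the thyroid and vitamin D receptors, rose from 8.98 ± 0.712 TPM to 26.0 ± 1.27 TPM (1.5) and 17.9 ± 1.14 TPM (0.99).

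**Figure D4:**
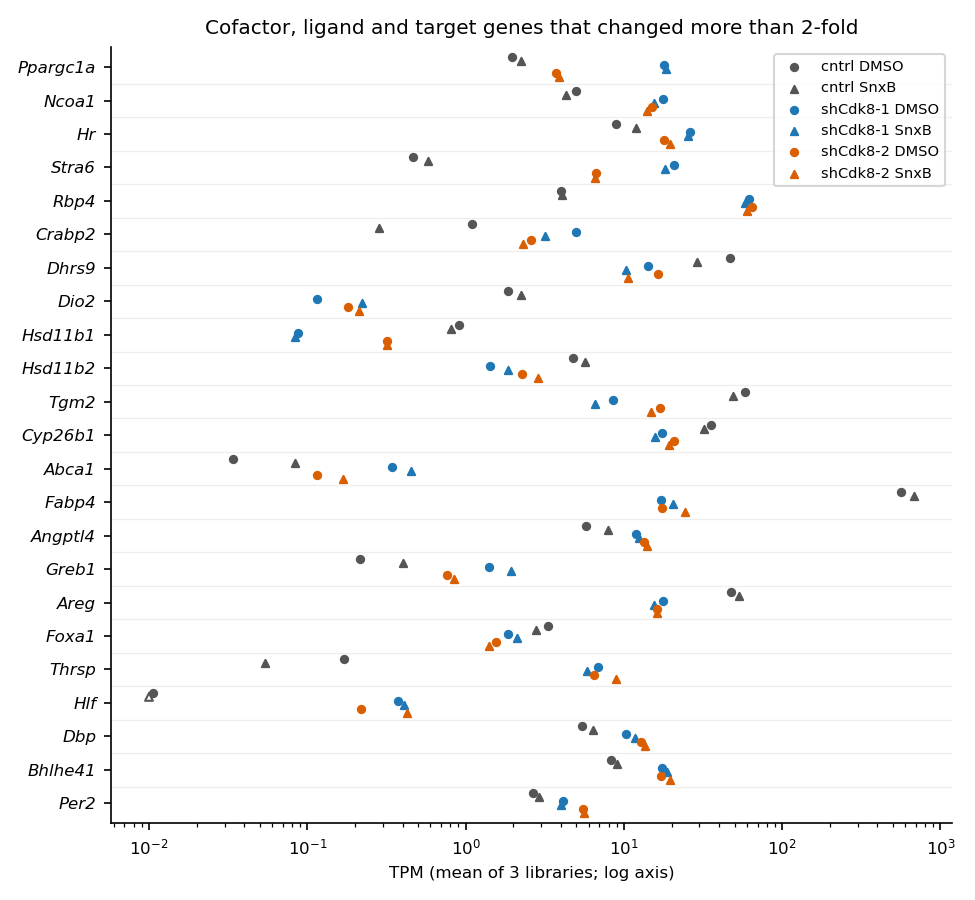
Level of 23 receptor cofactors, ligand enzymes, target and clock genes in TPM (log axis) in the 6 groups, each point the mean of 3 libraries, with values under 0.01 TPM drawn open at 0.01. Fabp4 lies at 566 TPM in cntrl and near 17 TPM in both knockdown lines, and Stra6 and Rbp4 lie higher in the knockdown lines.

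Genes of ligand metabolism and transport were counted in 2 lists, as mRNA alone, and no ligand was measured. Of 14 retinoid enzymes and binding proteins 6 were tested, and 3 rose and 2 fell with either hairpin in either medium (median log2 fold change 1.11 and 0.64 in DMSO). Stra6, the cellular retinol importer, rose from 0.466 ± 0.145 TPM to 20.6 ± 1.30 TPM in shCdk8-1 and 6.65 ± 0.494 TPM in shCdk8-2 (5.41 and 3.81). Rbp4, the retinol carrier, rose from 4.0 ± 0.384 TPM to 62.1 ± 3.07 and 64.6 ± 3.56 TPM (3.92 and 4.0), and Crabp2, which delivers retinoic acid to its receptors, from 1.10 ± 0.285 TPM to 4.96 ± 0.489 and 2.60 ± 0.199 TPM (2.10 and 1.20). Dhrs9, a retinol dehydrogenase, fell from 46.6 ± 0.846 TPM to 14.2 ± 0.0859 and 16.5 ± 0.458 TPM (-1.75 and -1.5). Of 14 enzymes of steroid, thyroid hormone and vitamin D metabolism 5 were tested, and 3 fell and none rose with either hairpin in DMSO (median -1.78 and -1.06), with 2 up and 3 down, and 0 up and 3 down, in SnxB. The 3 were Dio2, the thyroxine-activating deiodinase (1.85 ± 0.330 to 0.116 ± 0.0457 and 0.182 ± 0.126 TPM), Hsd11b1, which regenerates active glucocorticoid (0.907 ± 0.0548 to 0.0874 ± 0.113 and 0.317 ± 0.0627 TPM), and Hsd11b2, which inactivates it (4.78 ± 0.589 to 1.43 ± 0.387 and 2.28 ± 0.163 TPM).

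Target genes known for each receptor class went both ways. Glucocorticoid receptor targets numbered 10, of which 9 were tested and 4 rose and 3 fell with either hairpin in DMSO (median log2 fold change 0.26 and 0.09), and 5 rose and 3 fell with either in SnxB. None of them was deregulated in DMSO. Of 7 retinoic acid receptor targets, 4 were tested and 2 rose and 2 fell in all 4 hairpin comparisons (median 0.51 and 0.21 in DMSO). Tgm2, transglutaminase 2, fell from 58.4 ± 1.52 TPM to 8.54 ± 0.572 and 17.0 ± 1.48 TPM (-2.81 and -1.79), and Cyp26b1, a retinoic acid hydroxylase, from 35.7 ± 0.786 TPM to 17.5 ± 1.87 and 20.8 ± 1.68 TPM (-1.07 and -0.78). Of 7 liver X receptor targets, 5 were tested, with 3 up for shCdk8-1 and 2 up for shCdk8-2 in DMSO, 3 and 1 up in SnxB and none down (median 0.29 and 0.01 in DMSO). The cholesterol exporter Abca1 stayed at very low levels, 0.0342 ± 0.0236 TPM in cntrl, 0.341 ± 0.0745 TPM in shCdk8-1 and 0.115 ± 0.0307 TPM in shCdk8-2.

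Of 12 PPAR targets 9 were tested, with 3 up and 4 down for shCdk8-1 and 3 up and 2 down for shCdk8-2 in DMSO, and 3 up and 3 down, and 4 up and 2 down, in SnxB (median log2 fold change -0.09 and 0.06 in DMSO). Fabp4, a fatty acid carrier, fell from 566 ± 36.6 TPM to 17.2 ± 1.35 and 17.4 ± 0.197 TPM (-5.07 and -5.03), and Angptl4, an inhibitor of lipoprotein lipase, rose from 5.76 ± 0.850 TPM to 12 ± 0.834 and 13.3 ± 0.281 TPM (1.02 and 1.20). Of 10 estrogen and progesterone receptor targets 4 were tested, with 1 up and 3 down for each hairpin in DMSO (median -0.69 and -0.93), and 1 up and 2 down, and 1 up and 3 down, in SnxB. The 1 that rose was Greb1, a growth regulator, from 0.217 ± 0.128 TPM to 1.40 ± 0.179 and 0.768 ± 0.104 TPM (2.62 and 1.78). Areg, the EGF receptor ligand amphiregulin, fell from 47.7 ± 4.29 TPM to 17.6 ± 0.871 and 16.2 ± 1.91 TPM (-1.46 and -1.55), and Foxa1, a pioneer factor of Esr1 binding, from 3.33 ± 0.415 TPM to 1.85 ± 0.402 and 1.55 ± 0.190 TPM (-0.87 and -1.10).

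All 6 targets of the estrogen-related receptors were tested, with 5 up for shCdk8-1 and 3 up for shCdk8-2 in DMSO, 6 and 3 up in SnxB and none down (median log2 fold change 0.26 and 0.17 in DMSO). Of 5 thyroid hormone receptor targets 4 were tested and all 4 rose in each hairpin comparison, where 28.1% to 30.5% of all genes did (median 0.99 and 0.81 in DMSO). Thrsp, a lipogenic gene with at most 3 counts in a cntrl library, was at 0.170 ± 0.137 TPM in cntrl, 6.87 ± 0.129 TPM in shCdk8-1 and 6.5 ± 1.72 TPM in shCdk8-2. Of 15 clock genes 14 were tested, with 6 up and 2 down for shCdk8-1 and 6 up and 1 down for shCdk8-2 in DMSO, and 8 up and 2 down, and 6 up and 1 down, in SnxB (median 0.13 and 0.12 in DMSO). Dbp, a clock output factor, rose from 5.44 ± 0.694 TPM to 10.3 ± 0.435 and 12.8 ± 0.966 TPM (0.88 and 1.22), Bhlhe41, a clock repressor, from 8.24 ± 0.207 TPM to 17.4 ± 0.632 and 17.1 ± 1.78 TPM (1.04 and 1.05), and Per2 from 2.66 ± 0.211 TPM to 4.13 ± 0.729 and 5.52 ± 1.04 TPM (0.60 and 1.06). Hlf, a relative of Dbp with 1 count over the cntrl group, gave ratios of 34.1 (95% counting interval 5.74 to 1383) and 21.7 (3.55 to 894).

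Of the same 114 genes, 12 were higher and 18 lower in shCdk8-2 than in shCdk8-1 in DMSO, where 22.0% of all genes were called. SnxB moved 4 up and 5 down in cntrl, where 5.53% of all genes were called. The glucocorticoid-induced kinase gene Sgk1 rose from 85.1 ± 1.75 to 122 ± 3.25 TPM (log2 fold change 0.53, adjusted p = 2.4e-07), and Hr (0.41, adjusted p = 0.0037), Angptl4 (0.47, adjusted p = 0.030) and Fabp4 (0.27, adjusted p = 0.0024) rose as well. Dhrs9 fell from 46.6 ± 0.846 to 29.1 ± 0.959 TPM (-0.67, adjusted p = 4.5e-07), and Crabp2 (-1.85, adjusted p = 0.043), Kat2b (-0.17, adjusted p = 0.026), the metallothionein gene Mt2 (-0.23, adjusted p = 0.0044) and Tgm2 (-0.24, adjusted p = 0.030) fell. The value of Crabp2 rests on few counts, at most 10 in a cntrl library in DMSO. In shCdk8-1 SnxB moved 2 up and 1 down (Sgk1, Fabp4 and Dhrs9), where 1.48% of all genes were called, and in shCdk8-2 2 up and 3 down (Sgk1, Fabp4, Dhrs9, Mt2 and the clock activator Arntl), where 2.05% were. No list gene passed an interaction by edgeR.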

How the data were processed

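RNA of 18 E0771 libraries (3 lines, DMSO or SnxB, 3 replicates each) was sequenced as 50 bp single-end reads. As the labels, file headers and the study's methods state, the authors trimmed reads with Trimmomatic, aligned them with STAR to GRCm38 (mm10) and counted them per gene on the transcript's strand with featureCounts 1.5.1 and GENCODE M13. The deposited values are raw counts per gene with no normalization. Samples were grouped by their titles; in shCdk8-2 the replicate numbers within the files' headers differ from the labels, and the labels were used.

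Counts were tested with edgeR 4.0.16 (limma 3.58.1, R 4.3.3): TMM scaling, filterByExpr at its default minimum and the quasi-likelihood test with 1 term per group, p-values adjusted by Benjamini-Hochberg over all genes tested. The 12 libraries of cntrl in DMSO and SnxB and of both hairpins in DMSO gave 4 comparisons, and all 18 gave 6 more. CPM used TMM library sizes, and TPM the length column of the count tables. Fold changes are log2. Counting intervals and the floor of 3 counts cover counting error only. DESeq2 1.42.0 was an alternative. The fits were tested on simulated data. All 46 receptors were to be described, with every library's value for those deregulated in any comparison, and up to 4 genes a list by mean size of change among those deregulated with a hairpin in DMSO. The receptors and the gene lists were chosen with earlier results of these data known. Promoters came from RefSeq on GRCm38.p6, without chromosome 18. Levels of different genes were compared as TPM alone.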

Additional observations from a re-analysis of the deposited data

How the results depend on the processing

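In all, 10 comparisons of 25 receptors gave 250 values, of which 76 passed the test. Of these, 65 passed under every alternative run, 14 of the other 174 passed under some alternative, and none reversed. The share of all genes called in each comparison is given above. How many of all genes passed under every alternative was not counted, so the 65 have no background to be read against. The alternatives were DESeq2, its size factors in edgeR, library totals, no filter, a filter at 1 CPM, the replicate block, other sets of libraries and leaving out each library. For SnxB in cntrl, 1 receptor changed in the reported fit and 0 when only the groups compared were fitted, and 0 to 1 with a library left out. For SnxB in shCdk8-1, the 2 became 1 with DESeq2, with no filter and with the replicate block, 0 with only the groups compared, and 0 to 1 with a library left out. For SnxB in shCdk8-2, the 1 became 0 with DESeq2, with its size factors in edgeR, with the replicate block and with only the groups compared, and 0 to 1 with a library left out. The cause was not tested. Rarg for shCdk8-2 in DMSO lost its call in 5 alternatives besides those that leave out a library, the replicate block included.

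By label, same-numbered libraries correlated between -0.190 and 0.318 and no comparison had every pair above 0.1, so libraries were not paired. The header numbers of shCdk8-2 differ from the labels, so the correlations cannot decide on pairing in that line. With the replicate block, no other count of receptors moved by more than 1.5 times. Depth limits Nr1h4 and Nr4a3 in every line, Esr1 in the knockdown lines and Vdr in cntrl, where few counts stand behind each library.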
